A study of Arabidopsis thaliana with 6 samples.

Results

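The 35 ABC transporter genes described here are all Arabidopsis thaliana genes whose name in the authors' table of differentially methylated regions (DMRs) is ABC, a subfamily letter from A to I and a number. They were taken by name alone, in any sequence context, from the 7699 genes that the table lists. The study compared rbp-ko-1 (also labelled KO27) with Col-0, the wild-type accession. The series title names RBP45D, an RNA-binding protein, and ties it to flowering under heat and to methylation of DNA guided by RNA. Each genotype had 3 whole-genome bisulfite libraries from plants grown on soil for 26 days in long days (16 h of light and 8 h of dark). No treatment is labelled, rbp-ko-1 is the single mutant line, and nothing in the labels says whether 1 plant or several stand behind a library.

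ABC transporters are membrane proteins that use ATP to move substrates across a membrane. A typical member pairs nucleotide-binding domains, which hold the ATP, with domains that span the membrane. In plants the subfamilies differ in their cargo. ABCB proteins include auxin carriers and mitochondrial exporters, ABCC proteins move conjugates and metal chelates into the vacuole, and ABCG proteins export cuticle lipids, suberin and hormones. ABCE and ABCF proteins hold only the nucleotide-binding part and do not transport, and several ABCI proteins act as separate parts of larger complexes. In plant genomes CG methylation is common in the bodies of active genes and in transposons. CHG and CHH methylation (H being any base but G) is found mainly at transposons and repeats.

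Each methylation level below is the authors' mean over the libraries of a genotype, given in percent of methylated cytosine in that context, and coordinates are those of the table, in build TAIR10. Differences are rbp-ko-1 minus Col-0 in percentage points. The table gives no value per library and no coverage, so the depth is unknown. No level carries an error or a test, and whether a difference exceeds the spread between libraries could not be tested here. "Lower" and "higher" therefore describe rbp-ko-1 relative to Col-0 at regions that the authors called. The levels are averages over all cells of the sampled material, so partial methylation in every cell and full methylation in some cells cannot be told apart. RBP45D itself (AT5G19350) carried 0 DMRs, and a methylation table does not check whether it was knocked out.

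ABC genes carried 42 DMRs, most of them short CG regions inside the genes, and the CG regions were divided almost evenly between lower and higher methylation in rbp-ko-1. Of the 42 DMRs, 33 were CG and 9 CHH, and 0 were CHG. The CG regions comprised 18 with less and 15 with more methylation in rbp-ko-1, so that 45.5% were higher, against 25.3% of all 2909 CG DMRs of the table. All 9 CHH regions were lower, where 97.4% of the 5834 CHH DMRs of the table were. CG regions made up 78.6% of the ABC set and 31.6% of all 9213 DMRs. These shares were not tested against each other.

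Counted by gene, 19 of the 35 carried only lower regions, 12 only higher ones, and ABCB27, ABCG14, ABCG31 and ABCI9 both. Among all 7699 genes of the table the corresponding shares were 83.5%, 11.9% and 4.62%, set beside 54.3%, 34.3% and 11.4% of the ABC genes. The ABC genes had a smaller share of CHH regions, which are nearly all lower, so the CG counts are also given alone. In CG, 16 ABC genes had lower regions only, 14 higher regions only and 2 both, while the table as a whole had 2742, 906 and 136 of 3784 genes. Most ABC genes, 29, had 1 DMR, while ABCB27, ABCG31 and ABCG39 had 2 and ABCG14, ABCI8 and ABCI9 had 3. A DMR shared by neighbouring members was counted once, which concerns ABCB23 with ABCB24 and ABCA11 with ABCA12.

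The RefSeq gene table of assembly TAIR10.1 names 127 ABC genes of these subfamilies by symbol or synonym, and all 35 members were matched in it by gene ID. With 6 more that the authors' table lists under other names, 41 of the 127 (32.3%) carried a DMR in the gene or promoter, against 22.0% of all 27562 protein-coding genes. In CG, 37 ABC genes (29.1%) stood against 11.7% of all protein-coding genes. In CHH, 9 ABC genes (7.09%) stood against 12.5%, and in CHG 2 (1.57%) against 1.34%. The 2 CHG genes and 3 of the 9 CHH genes are listed under other names. Their CHG and CHH regions all lay at 3.2 to 3.6 Mb of chromosome 2. That window was taken for the copy of the mitochondrial genome described below, without checking its exact ends. Members alone had 6 genes in CHH and 0 in CHG. These are counts without a test, and gene length was not taken into account. A gene outside the table is only a gene with no listed region, and 86 ABC genes were in that position, among them ABCB1 and ABCB4, which carry auxin, ABCC1 and ABCC2, which store metal chelates in the vacuole, and ABCG25 and ABCG40, which carry abscisic acid.

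Subfamilies differed in how many genes they contributed. ABCB gave 13 of its 28 genes (46.4%), with 6 lower only, 6 higher only and 1 of both kinds. ABCG, the largest subfamily, gave 11 of 43 genes (25.6%), with 6 lower only, 3 higher only and 2 of both kinds. ABCA and ABCI gave 4 genes each, of 12 and 19. ABCC gave 1 of 15 under the naming used, ABCE 1 of 3, ABCF 1 of 5 and ABCD 0 of 2. These counts depend on the authors' gene names. Under other names, 3 more ABCC genes, 2 more ABCI genes and 1 more ABCG gene carried a DMR. Of all protein-coding genes 22.0% carried one, and differences between subfamilies were not tested.

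**Figure D1:**
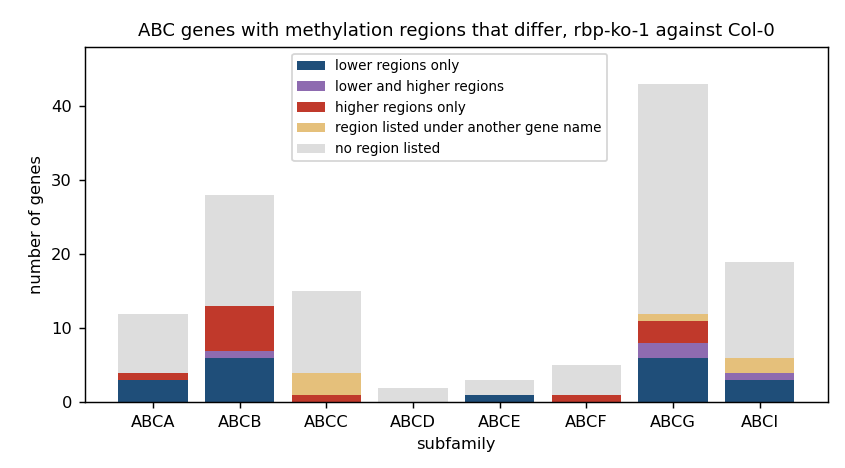
Number of ABC genes per subfamily, stacked by the regions they carry: lower only, lower and higher, or higher only in rbp-ko-1, listed under another gene name, or with no region listed. ABCB holds 13 of the 35 genes and ABCG 11, and ABCD holds none.

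The CG regions lay mostly inside the transcribed gene. Counting each gene with each of its regions, 30 of 35 CG pairs (85.7%) were in the gene body and 5 (14.3%) in a promoter. Over all genes of the table the 2 shares were 50.03% and 47.1%, with the rest in both. Exons were annotated at 29 of the 35 CG pairs (82.9%, against 50.6% of all CG pairs of the table). Introns were annotated at 9 (25.7% against 13.7%) and 3′ UTRs at 3 (8.57% against 5.66%), those of ABCB27, ABCB28 and ABCE2. In gene bodies the ABC genes had 15 lower and 15 higher pairs, where 28.0% of all gene-body CG pairs were higher. In promoters they had 4 lower pairs and 1 higher, the higher one at ABCB24, where 20.3% of all CG pairs with a promoter annotation were higher. All 9 CHH regions, by contrast, were annotated to the ABC gene as promoter only, although some of them also lay in an exon or intron of a neighbouring gene.

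**Figure D2:**
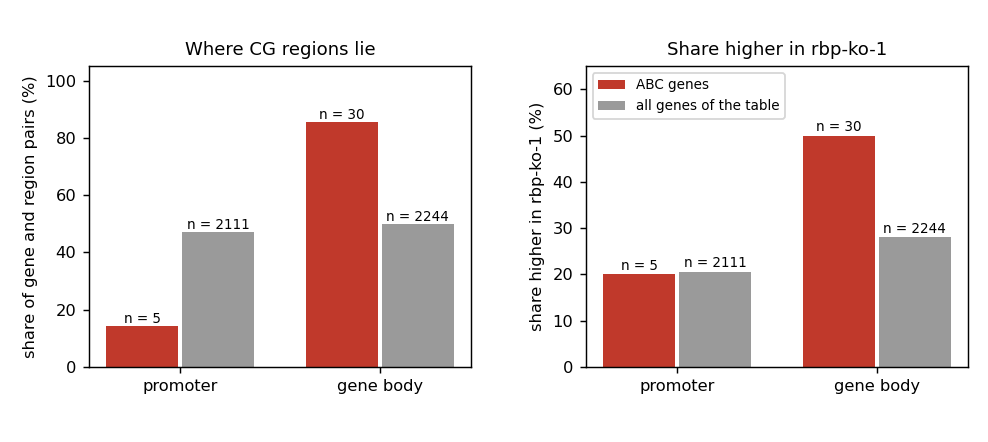
Left, share of gene and CG region pairs (percent) that lie in a promoter or in the gene body only. Right, share of those pairs that was higher in rbp-ko-1 (percent). ABC genes (red) stand left of all genes of the table (grey), with the number of pairs above each bar. In gene bodies 15 of 30 pairs of ABC genes were higher.

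Most of the ABC regions were small. The median CG region spanned 84 bp and held 10 CG cytosines, against 97 bp and 11 over all CG DMRs. Fewer than 10 cytosines stood behind 16 of the 33 (48.5%, against 44.3% of all CG DMRs). A level over so few cytosines rests on little data, and its precision is not known here. The CHH regions spanned a median of 198 bp and 43 cytosines, against 234 bp and 65 over all CHH DMRs.

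Among the higher CG regions 8 of 15 had a Col-0 level under 10%, and among the lower ones 3 of 18 did. The 11 ABC regions under 10% in Col-0 made up 33.3% of the ABC CG regions, with 72.7% of them higher, against 16.6% of all CG DMRs, of which 39.0% were higher. In that band 294 of the 482 CG DMRs of the table were lower. A Col-0 level under 10% leaves little room below it, and the part of this in the shares was not tested. These bands describe where the regions lie, and the shares were not tested. The 15 higher regions had a median of 47.8% in rbp-ko-1 and 9.95% in Col-0, while all 735 higher CG DMRs of the table had 62.99% and 31.5%. Their median difference was 22.3 points, close to the 22.99 points of all higher CG DMRs. The 18 lower regions had a median of 7.36% in rbp-ko-1 and 25.9% in Col-0, near the 7.88% and 29.99% of all 2174 lower CG DMRs, with median differences of -20.1 and -18.3 points. Regions under 5% in one genotype and at least 20% in the other, thresholds chosen after the values were seen, were 5 of the 33 (15.2%), against 12.9% of all CG DMRs. They were the lower regions of ABCB12, ABCG12 and ABCA11 with ABCA12, and the higher ones of ABCG15 and an exon of ABCG14.

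**Figure D3:**
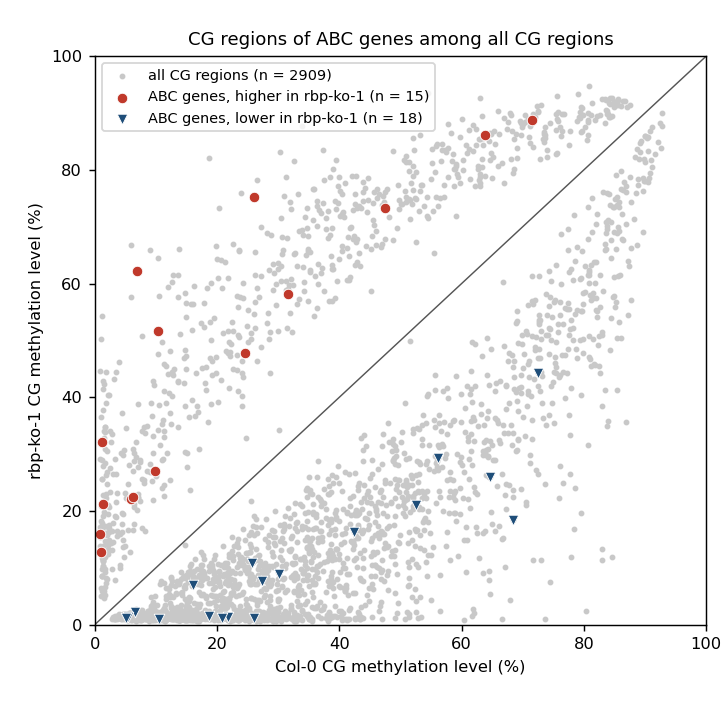
CG methylation level (percent) in rbp-ko-1 against that in Col-0 for each CG region. All 2909 CG regions are grey, the 15 higher regions of ABC genes are red circles, the 18 lower ones are dark blue triangles, and the line marks equal levels. Of the higher ABC regions 8 lie below 10% in Col-0.

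The widest gaps among the higher regions lay at half-size ABCB genes and at an ABCA gene. The single region of ABCB23 (AT4G28630) and ABCB24 (AT4G28620), at an exon of one and the promoter of the other, had 62.2% CG methylation in rbp-ko-1 and 7.01% in Col-0 and ranked 4 by size among the 735 higher CG DMRs (chromosome 4, 14139879 to 14139984). Both genes encode mitochondrial half-transporters and lie side by side. Paralogs can share reads, how alike these genes are was not measured here, and the part of shared reads in the levels was not tested, so the values of this pair are uncertain. Their relative ABCB25 (AT5G58270) is known to export a sulphur compound from mitochondria that the cytosol needs for iron-sulphur proteins. An exon of ABCB25 had 22.2% in rbp-ko-1 and 5.999% in Col-0 over 7 cytosines (chromosome 5, 23566743 to 23566818), at a region also annotated to AT5G58280.

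ABCB28 (AT4G25450), at a region that is also annotated to the promoter of the zinc finger gene ZFWD1, had 75.3% in rbp-ko-1 and 26.01% in Col-0 over 6 cytosines in an exon, an intron and the 3′ UTR (chromosome 4, 13010203 to 13010272). It ranked 14 of 735. ABCA4 (AT3G47750), one of the half-size ABCA proteins, had 51.7% in rbp-ko-1 and 10.4% in Col-0 over 10 cytosines in an exon and an intron (chromosome 3, 17608961 to 17609037), which ranked 45. ABCA4 was the one member among 7 ABCA genes that lie next to each other there.

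Other higher ABCB regions were smaller in difference and stood at different Col-0 levels. ABCB10 (AT1G10680, region on chromosome 1, 3540407 to 3540541) had 22.6% in rbp-ko-1 and 6.20% in Col-0 over 15 cytosines. ABCB15 (AT3G28345, region on chromosome 3, 10595557 to 10595634) had 47.8% in rbp-ko-1 and 24.6% in Col-0. ABCB27 (AT5G39040, region on chromosome 5, 15629417 to 15629498), the vacuolar protein ALS1 that is needed for aluminium tolerance, was highly methylated in both genotypes, with 88.9% in rbp-ko-1 and 71.5% in Col-0 over an exon and the 3′ UTR. ABCF4 (AT3G54540, region on chromosome 3, 20191304 to 20191398), a soluble protein related to yeast Gcn20, likewise had 86.1% and 63.8% in rbp-ko-1 and Col-0. ABCC7 (AT3G13100, region on chromosome 3, 4213637 to 4213720), the only ABCC gene under this naming, had 58.2% in rbp-ko-1 and 31.6% in Col-0 over 5 cytosines.

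In ABCG, 5 genes carried a higher region, and ABCG14 and ABCG31 among them carried lower ones too. ABCG14 (AT1G31770), which moves cytokinin from root to shoot, had 32.2% in rbp-ko-1 and 1.23% in Col-0 in an exon, over only 4 cytosines (chromosome 1, 11376313 to 11376404). That region is also annotated to the promoter of AT1G31772. The ratio of 26.1 between the genotypes there was the largest of all 15 higher ABC regions. ABCG37 (AT3G53480, region on chromosome 3, 19828953 to 19829015), which exports auxin precursors and coumarins from roots, had 26.96% in rbp-ko-1 and 9.95% in Col-0 over 5 cytosines. ABCG31 (AT2G29940), an abscisic acid carrier of the seed, had 73.3% in rbp-ko-1 and 47.5% in Col-0 at an exon (chromosome 2, 12762255 to 12762309). ABCG35 and ABCG15 stood near 0 in Col-0. ABCG35 (AT1G15210, region on chromosome 1, 5233802 to 5233868), a full-size protein of the pleiotropic drug resistance type, had 15.99% in rbp-ko-1 and 0.901% in Col-0. ABCG15 (AT3G21090, region on chromosome 3, 7391918 to 7392030) had 21.2% in rbp-ko-1 and 1.41% in Col-0, at a region that also lies in the promoter of AT3G21080, annotated as an ABC transporter-like gene.

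Lower CG regions were led by ABCA1. ABCA1 (AT2G41700), the only full-size ABCA protein of the species, had 18.4% in rbp-ko-1 and 68.5% in Col-0 over 8 cytosines in an exon (chromosome 2, 17386784 to 17386846). It ranked 38 by size among the 2174 lower CG DMRs. The other lower ABCA region was one of 11 cytosines at an exon of ABCA12 (AT5G61700) and the promoter of ABCA11 (AT5G61690), with 1.43% in rbp-ko-1 and 21.8% in Col-0 (chromosome 5, 24794153 to 24794249). ABCE2 (AT4G19210, region on chromosome 4, 10504915 to 10504991), whose yeast relative Rli1 splits ribosomes after translation, had 1.46% in rbp-ko-1 and 18.8% in Col-0 in an exon and the 3′ UTR.

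The lower ABCG regions included those of ABCG12, ABCG2 and ABCG11. ABCG12 (AT1G51500), the wax exporter also called CER5, had 1.14% in rbp-ko-1 and 20.9% in Col-0 over 24 cytosines in an exon and an intron (chromosome 1, 19099266 to 19099512). This was the longest CG region of the set, at 247 bp. ABCG2 (AT2G37360, region on chromosome 2, 15675158 to 15675283), needed for suberin, had 44.4% in rbp-ko-1 and 72.5% in Col-0 at an exon, where an antisense gene (AT2G37362) is also annotated. ABCG11 (AT1G17840, region on chromosome 1, 6141115 to 6141169), the partner of ABCG12 in cutin and wax export, had no CG region but a CHH one, with 2.60% in rbp-ko-1 and 7.38% in Col-0 at its promoter.

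Further lower ABCG regions were spread over promoters and exons. ABCG10 (AT1G53270, region on chromosome 1, 19863240 to 19863309) had 21.0% in rbp-ko-1 and 52.5% in Col-0 at an exon. That region is also annotated to the promoter of AT1G53265. ABCG39 (AT1G66950), of the pleiotropic drug resistance type, had 16.4% in rbp-ko-1 and 42.4% in Col-0 at its promoter and 8.96% and 30.1% at an exon (chromosome 1, 24977663 to 24977829 and 24984038 to 24984103). Both regions of ABCG39 were thus lower, over 7 and 5 cytosines. ABCG38 (AT3G30842, region on chromosome 3, 12597443 to 12597532) had 1.13% in rbp-ko-1 and 5.06% in Col-0, the smallest CG difference of the set. ABCI17 (AT1G67940, region on chromosome 1, 25478375 to 25478425), the nucleotide-binding protein STAR1 that works in aluminium tolerance, had 29.2% in rbp-ko-1 and 56.1% in Col-0 over 5 cytosines. That region is also annotated to the promoters of AT1G08963 and AT1G67930.

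The lower ABCB regions included an auxin exporter. ABCB19 (AT3G28860), which carries auxin down the stem, had 7.69% in rbp-ko-1 and 27.4% in Col-0 over 7 cytosines in an exon (chromosome 3, 10871287 to 10871348). ABCB14 (AT1G28010, region on chromosome 1, 9767348 to 9767471), a malate importer of guard cells, had 1.37% in rbp-ko-1 and 5.48% in Col-0. ABCB12 (AT1G02530, region on chromosome 1, 533107 to 533198) had 1.26% in rbp-ko-1 and 26.1% in Col-0 over 14 cytosines, and ABCB11 next to it had no region listed.

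ABCB genes of 1 tandem array on chromosome 3 differed in direction. There, 4 of the 5 genes ABCB15, ABCB16, ABCB17, ABCB18 and ABCB22 carried a CG region. ABCB15 was higher, as given above. ABCB17 (AT3G28380, region on chromosome 3, 10624791 to 10624871) had 7.04% in rbp-ko-1 and 16.1% in Col-0, ABCB18 (AT3G28390, region on chromosome 3, 10633596 to 10633666) 10.8% and 25.8%, and ABCB22 (AT3G28415, region on chromosome 3, 10649013 to 10649193) 1.03% and 10.6%. ABCB16 had none listed. Such paralogs can share reads, and no sequence was used here to measure how alike they are. Over the whole family, 14 of 47 genes in 15 tandem groups (29.8%) were members and 21 of 80 outside them (26.3%), where a group is a run of ABC genes with at most 5 other protein-coding genes between neighbours.

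**Figure D4:**
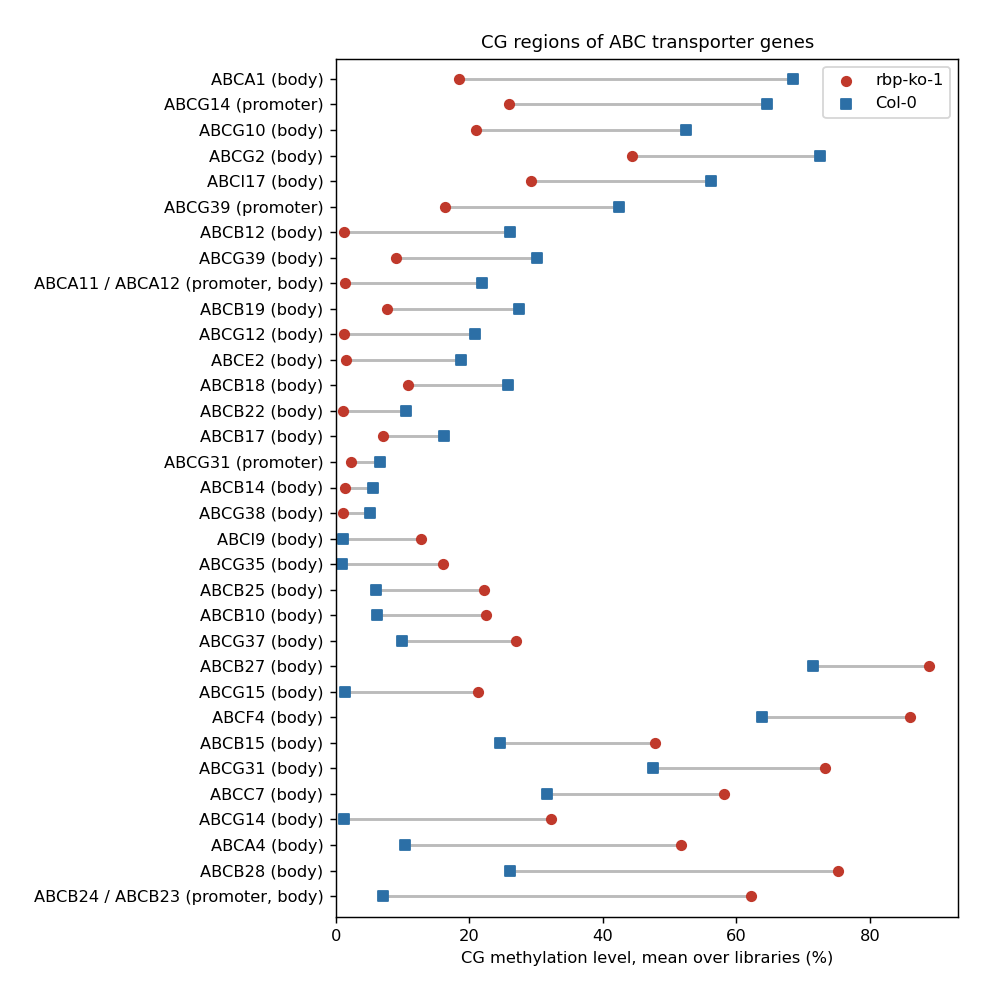
CG methylation level (percent, the authors' mean over 3 libraries per genotype) of each of the 33 CG regions of ABC genes, in rbp-ko-1 (red circles) and Col-0 (blue squares), with the gene and the annotated place at the left. Regions run from the largest negative difference at the top (ABCA1) to the largest positive one at the bottom (ABCB24 and ABCB23). Error is not shown because the table holds 1 mean per genotype.

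Promoters of 6 ABC genes had less CHH methylation in rbp-ko-1 than in Col-0, and ABCI7, ABCI8 and ABCI9 of subfamily I carried 6 of the 9 regions. ABCI7 and ABCI8 build iron-sulphur clusters in plastids. At the median region CHH methylation was 3.56% in rbp-ko-1 and 10.4% in Col-0, with a median difference of -5.62 points. All lower CHH DMRs of the table had medians of 3.14%, 8.99% and -5.82 points. As a ratio, the rbp-ko-1 level was a median 0.393 of that in Col-0, against 0.354 over all lower CHH DMRs. Incomplete bisulfite conversion raises low levels such as these most in relative terms, and no conversion rate was used here.

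ABCI7 (AT1G32500), the plastid protein SUFD, had the longest region, 709 bp with 206 cytosines, with 7.29% in rbp-ko-1 and 18.5% in Col-0 at its promoter (chromosome 1, 11753501 to 11754209). Its partner in the plastid assembly complex, ABCI8 (AT4G04770, the protein SUFB), had 3 promoter regions within a stretch of chromosome 4. They had 5.93% in rbp-ko-1 and 11.5% in Col-0 (2430653 to 2430803), 2.47% and 7.39% (2431030 to 2431369), and 3.48% and 8.85% (2431447 to 2431829). All 3 were also annotated to MED21 (AT4G04780), a subunit of the Mediator complex, and to AT4G04775, so they cannot be assigned to ABCI8 alone. ABCI6 (SUFC), the ATPase of that complex, had no region listed.

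ABCI9 (AT5G44316), annotated as a putative relative of ABCI8, had both contexts in opposite directions. Its promoter CHH regions had 16.7% in rbp-ko-1 and 26.3% in Col-0 (chromosome 5, 17852311 to 17852436) and 5.36% and 12.2% (17851332 to 17851668). The region from 17851332 is also annotated to the promoter of AT5G44310. An exon 686 bp away from the nearer CHH region had CG methylation of 12.8% in rbp-ko-1 and 1.08% in Col-0 over 12 cytosines. ABCG14 showed a similar split. Its promoter had a CHH region with 3.56% in rbp-ko-1 and 10.4% in Col-0 and, inside the same stretch, a CG region with 25.96% and 64.6% over 6 cytosines (chromosome 1, 11378177 to 11378374 and 11378217 to 11378306). Both promoter regions also lie in an intron and the promoter of the defensin-like gene AT1G31772, and the exonic CG region of ABCG14 described above was higher. At ABCG31 a promoter CG region had 2.28% in rbp-ko-1 and 6.60% in Col-0 (chromosome 2, 12758294 to 12758391), at a place that is also an exon of the neighbour AT2G29930, while its exon was higher. ABCB27 had the smallest difference of all 5680 lower CHH DMRs, with 0.565% in rbp-ko-1 and 2.19% in Col-0 over 24 cytosines (chromosome 5, 15623521 to 15623581), and its CG region was higher.

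**Figure D5:**
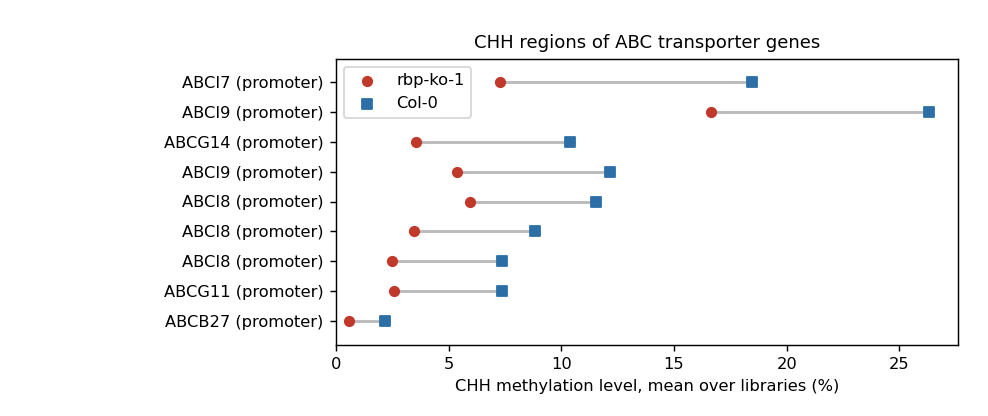
CHH methylation level (percent, the authors' mean over 3 libraries per genotype) of the 9 CHH regions of ABC genes, in rbp-ko-1 (red circles) and Col-0 (blue squares), all at promoters. In every region the rbp-ko-1 level lies left of the Col-0 level, and ABCI7 and ABCI9 show the widest gaps.

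Few ABC regions lay near a centromere, where transposons are dense. Within 3 Mb of one lay 3 of the 9 CHH regions (33.3%), all of ABCI8, against 57.0% of all nuclear CHH DMRs. In CG it was 1 of 33 (3.03%), the region of ABCG38, against 23.1%. Centromeres were taken as round positions, and the shares were not tested. None of the 42 regions lay in the mitochondrial genome or in its copy on chromosome 2.

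Some regions were annotated to more than the ABC gene. Of the 42 DMRs 14 were also annotated to a gene that is no ABC gene by name, 9 of 33 in CG and 5 of 9 in CHH. Over the whole table, 2909 CG DMRs made 4485 gene and DMR pairs and 5834 CHH DMRs made 8522. Sharing between genes was thus common throughout. Neither the share of shared DMRs nor that of nearby DMRs was counted over all DMRs. Within 1000 bp of a member DMR another DMR was listed for 8 of the 42, and these were the regions of ABCG14, ABCI8 and ABCI9 already described plus a CG region of MED21 with 57.9% in rbp-ko-1 and 23.3% in Col-0, 872 bp from the nearest ABCI8 region.

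The 6 further ABC genes that the table names otherwise carried 18 DMRs. Of those, 15, from 3 genes, lay at 3.2 to 3.6 Mb of chromosome 2. That round window was taken for the copy of the mitochondrial genome, and the true ends of the copy were not determined here. In that window, ABCC13 (AT2G07680, listed as ATMRP11) had 5 lower CHH regions with 0.392 to 1.87% in rbp-ko-1 and 2.92 to 6.56% in Col-0. They lay between 3512656 and 3521209, and whether that stretch belongs to the copy was not checked. ABCI4 (AT2G07681) and ABCI5 (AT2G07771) had lower regions in all 3 contexts there, except 1 CG region of ABCI4 with 75.2% in rbp-ko-1 and 55.7% in Col-0. Reads from mitochondrial DNA can map to the copy, and their part in the levels of regions that lie in it was not tested. Outside the window, all 3 genes were higher in CG. ABCC12 (AT1G30410, listed as ATMRP13) had 39.1% in rbp-ko-1 and 9.16% in Col-0 over 5 cytosines, and ABCC8 (AT3G21250, listed as MRP6) had 80.1% and 68.6% over 15 cytosines. ABCG23 (AT5G19410), which has 5 protein-coding genes between it and RBP45D, had 52.5% in rbp-ko-1 and 24.9% in Col-0 over 4 cytosines at its promoter.

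Among genes that act beside the ABC proteins, DMRs were listed for a smaller share. Of 49 such genes in 6 lists, 6 (12.2%) had a DMR, 5 with a lower and 2 with a higher one, against 22.0% of all protein-coding genes. These shares were not tested, and 89.8% of all DMRs of the table were lower. Among 13 auxin carriers and partners, only PIN4, an auxin efflux carrier, had any, with promoter CHG methylation of 30.7% in rbp-ko-1 and 10.1% in Col-0 and CHH methylation of 2.72% and 7.01%. The 18 genes of cuticle, suberin and pollen wall synthesis had 3, all lower. CER4, a wax alcohol reductase, had 1.98% in rbp-ko-1 and 23.0% in Col-0 in CG, CYP86A1, a suberin hydroxylase, 0.893% and 13.99% in CG, and GPAT8, a cutin acyltransferase, 2.50% and 6.95% in CHH. Of 8 iron-sulphur genes 2 had a CG region. SUFE1, which activates the plastid cysteine desulphurase, had 22.97% in rbp-ko-1 and 1.79% in Col-0 at its promoter, and NFS1, the mitochondrial desulphurase, had 28.9% and 52.8% in an exon. The lists for metal chelates (4 genes), for peroxisomal and plastid lipid entry (4 genes) and for other abscisic acid carriers (2 genes) had 0.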

How the data were processed

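DNA methylation was measured by whole-genome bisulfite sequencing in 3 rbp-ko-1 and 3 Col-0 libraries. The submitters' processing notes name TAIR10 as the build and, without versions, the trimmer Trimmomatic, FastQC for read quality, the aligner Bismark and the methylation extractor MethylDackel. How DMRs were called, with which thresholds, annotation and promoter size, is not given in the sources used here. A single table was deposited by the authors, with 18828 entries for 9213 DMRs, each with a methylation fraction per genotype (a mean over its libraries) and an area statistic, a score deposited by the authors that was used only in 1 alternative. Coordinates are those of the table.

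Fractions were turned into percent and subtracted with Python 3.11.15 and pandas 2.3.3, checked on simulated data. Each DMR was counted once per context, and gene and DMR pairs were used for annotated places. A model per library was planned for counts, which the table does not hold, so no test was run. The members and gene lists were chosen with earlier results of these data known. Values were given for every member with a CG DMR or a higher one, for members in several contexts, for the members with the largest CHH differences and for listed related genes with a DMR. The remaining members, with their regions, and the sharing of regions were added after values were seen. RefSeq (TAIR10.1) served for names and for the order of genes. Centromeres were taken at 15, 3.6, 14, 4.0 and 12 Mb on chromosomes 1 to 5. RefSeq sequences of promoters and proteins were not used here. Alternatives were 11 filters, groupings or definitions of membership.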

Additional observations from a re-analysis of the deposited data

How the results depend on the processing

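No paired analysis was possible because the table holds 1 mean per genotype, and for the same reason no library could be left out. Of 148 values recomputed over 14 results and 11 alternatives, 108 stayed within 1.5 times the value reported and 40 did not. The 108 include counts of CHG regions and of higher CHH regions that stayed at 0. A change of sign could not occur. Regions were split by direction before each median difference was taken, and the other results were counts or levels. At a minimum difference of 10 points 14 genes had a lower region and 1 CHH region was left, that of ABCI7 (7.29% in rbp-ko-1, 18.5% in Col-0, -11.2 points). At 20 points 9 genes had a lower and 9 a higher region, CG had 9 lower and 8 higher, CHH 0, and the lower CG ones a median of 18.4% in rbp-ko-1 and 52.5% in Col-0. With at least 10 cytosines CG had 10 lower and 7 higher regions, 8 genes had a higher one, and the median rbp-ko-1 level of lower CG regions was 1.40%. With at least 100 bp CG had 5 lower and 3 higher, 9 genes had a lower and 4 a higher region, and the rbp-ko-1 medians of lower regions were 1.37% in CG and 5.36% in CHH. Among regions with the larger area statistic CG had 9 lower and 6 higher, CHH 4, genes 13 lower and 7 higher, and the CG median in rbp-ko-1 was 1.43%. Gene bodies alone left 15 genes with a lower region and 0 CHH regions. Promoters alone left CG at 4 lower and 1 higher (55.2 points) and genes at 9 lower and 1 higher. Without regions shared with other genes CHH had 4 and the CG median in rbp-ko-1 was 1.46%. With ABC genes listed under other names CHH had 17 lower regions, with a median of 2.05% in rbp-ko-1, and CHG had 3. The share of CG regions that was higher, 45.5%, ranged from 37.5% (at least 100 bp) to 53.6% (10 points) under filters on size, where all CG DMRs ranged from 19.7 to 31.1%. Leaving out ABCB23 and ABCB24, or merging regions within 100 bp, moved no value by over 1.5 times. Depth, and so precision, is unknown.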
